A study of Mus musculus with 8 samples.

Results

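The progestin and adipoQ receptor (PAQR) family was followed through mouse skin exposed to house dust mite (HDM) allergen, with or without oral butyrate. Its members were taken by gene symbol from a table of counts of protein-coding genes, namely Paqr3, Paqr4, Paqr5, Paqr6, Paqr7, Paqr8, Paqr9, Adipor1 and Adipor2. These are 9 of 22740 genes listed, and all 9 were among the 15163 genes with enough counts to be tested. The family was selected on the Paqr7 fold-change between butyrate and CTL mice in lesional skin, which was known to be large, so its values in that comparison, and in each further comparison that shares those mice, are given as a description with no test.

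Dorsal skin of 8 female BALB/c mice, 6 to 8 weeks old, was sequenced as 1 library per mouse, with 2 mice in each of 4 groups. All mice ate a low-fibre diet. Butyrate mice drank 400 mM sodium butyrate, a short-chain fatty acid (SCFA) salt, starting 2 weeks ahead of the allergen, and CTL mice drank plain water. Lesional skin had received HDM extract on the surface 4 times over 2 weeks, at 15 µg each time, and baseline skin had received none. The extract was applied to shaved skin under an occlusive dressing. Whether the sequenced baseline skin was shaved or dressed is not stated, so a comparison by HDM exposure may include these steps. The labels number the baseline mice and the lesional mice in separate series, so that HDM exposure and a difference between these sets of mice cannot be told apart. The labels likewise give butyrate and CTL mice different middle numbers, whose meaning is not stated. Butyrate and a difference between those sets of mice therefore cannot be told apart either. Nothing beyond the mouse numbers describes the replicates, and the p-values cover the spread between these mice only.

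PAQR proteins cross the membrane several times. Adipor1 and Adipor2 are the receptors for adiponectin, a hormone secreted by adipocytes that acts on fatty acid oxidation and ceramide breakdown. In contrast to G protein-coupled receptors, both adiponectin receptors keep their amino terminus inside the cell. Paqr7, Paqr8, Paqr5, Paqr6 and Paqr9 are known as the membrane progestin receptors alpha, beta, gamma, delta and epsilon, which bind progesterone and related steroids at the cell surface, apart from the nuclear progesterone receptor Pgr. Paqr3 sits in the Golgi and holds Raf kinases there, and for Paqr4, also found in internal membranes, no ligand is established.

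Paqr7, Paqr5 and Paqr6 had the largest ratios of highest to lowest level over the libraries, and their promoter windows are shown for that reason. Paqr7 (ENSMUSG00000037348) lies on the forward strand at chr4:134496697-134510235 of GRCm38 and has 6 annotated transcripts. Each window below, from RefSeq on GRCm38.p6, runs from 250 bases before a transcription start to 50 bases after it on the strand of the gene. Capitals mark the GC box GGGCGG and the GATA motif AGATAA, each read on both strands, so that matches on the other strand appear as CCGCCC and TTATCT. The first Paqr7 window covers chr4:134496511-134496810 and the second chr4:134496791-134497090, both on the forward strand. The Paqr5 window covers chr9:62026741-62027040 on the reverse strand, and the Paqr6 window chr3:88364339-88364638 on the forward strand.
Paqr7 first start: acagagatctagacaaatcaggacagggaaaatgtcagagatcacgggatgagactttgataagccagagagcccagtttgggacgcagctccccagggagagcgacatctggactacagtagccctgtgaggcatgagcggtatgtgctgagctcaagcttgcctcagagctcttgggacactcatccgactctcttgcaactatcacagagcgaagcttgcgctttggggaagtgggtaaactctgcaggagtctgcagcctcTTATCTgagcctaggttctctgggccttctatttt
Paqr7 second start: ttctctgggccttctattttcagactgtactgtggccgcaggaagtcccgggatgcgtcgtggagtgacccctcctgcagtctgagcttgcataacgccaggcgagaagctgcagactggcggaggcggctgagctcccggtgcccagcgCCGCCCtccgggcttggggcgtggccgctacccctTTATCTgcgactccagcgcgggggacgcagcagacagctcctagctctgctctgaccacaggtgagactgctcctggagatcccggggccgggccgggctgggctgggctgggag
Paqr5: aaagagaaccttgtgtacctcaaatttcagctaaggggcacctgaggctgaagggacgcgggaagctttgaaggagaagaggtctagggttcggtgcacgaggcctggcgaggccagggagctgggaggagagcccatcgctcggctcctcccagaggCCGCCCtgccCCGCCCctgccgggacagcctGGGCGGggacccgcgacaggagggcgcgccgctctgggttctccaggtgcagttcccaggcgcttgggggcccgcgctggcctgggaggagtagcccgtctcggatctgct
Paqr6: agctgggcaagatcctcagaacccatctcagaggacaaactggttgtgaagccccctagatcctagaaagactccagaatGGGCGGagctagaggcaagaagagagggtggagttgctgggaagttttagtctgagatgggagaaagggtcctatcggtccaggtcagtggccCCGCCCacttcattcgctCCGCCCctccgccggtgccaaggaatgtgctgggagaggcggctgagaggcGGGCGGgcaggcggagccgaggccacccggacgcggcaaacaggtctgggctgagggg

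Both Paqr7 windows held 1 GATA motif, which 11.2% of 32851 windows of the same length across the genome held, and none of the other 9 windows of the family did. The GC content was 52.3% in the first Paqr7 window and 67.0% in the second, beside a median of 52.7% over all windows. The GC box was absent from the first Paqr7 window, present 1 time in the second, 3 times in Paqr5 and 4 times in Paqr6. It was found in 35.7% of all windows. The half-site AGAACA, which progesterone and glucocorticoid receptors recognise, was in none of these 4 windows and in 19.0% of all windows. Windows were found for 8 of the 9 members, 11 in all, and none for Paqr9. A match describes the letters in a window and not a factor bound there.

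Library totals were between 18004136 and 21085544 counts, and levels are given as CPM, the counts of a gene scaled to a common library size after TMM, the correction for library composition in edgeR. Markers of basal and suprabasal keratinocytes, fibroblasts and adipocytes, the cells that define skin, were above 0 in all 8 libraries. One library stood apart. In baseline butyrate replicate 3, 11 hair follicle markers summed to 19180 CPM, against 22.29 to 36.51 CPM in the other 7 mice, and 5 melanocyte markers to 723.4 CPM against 24.74 to 44.14 CPM. Among genes averaging at least 1 CPM, 3878 lay more than 2-fold apart between the baseline butyrate mice, and between 257 and 717 in the other groups. Results that rest on this mouse are given with and without it.

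Paqr7 was among the most abundant members in baseline skin and the member furthest below it in lesional CTL skin. Its level was 180 and 179 CPM in the baseline CTL mice. In the lesional CTL mice it was 20.7 and 17.8 CPM, 10.7% of the baseline CTL mean. The lesional butyrate mice had 122 and 143 CPM, or 73.9% of that mean, and the baseline butyrate mice had 228 CPM in replicate 1 and 77.4 CPM in replicate 3. The lesional CTL mice thus lay far below the other 6, and the lesional butyrate mice lay between the baseline CTL mice and the low baseline butyrate mouse.

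On the log2 scale, the fitted Paqr7 level was 2.78 ± 0.49 (SE) higher in lesional butyrate than in lesional CTL skin, a 6.89-fold difference. The difference between lesional and baseline skin was -3.22 ± 0.50 in CTL mice and -0.20 ± 0.45 in butyrate mice. The value in butyrate mice rested on which baseline mouse was used, at -0.79 without replicate 3 and 0.78 without replicate 1. Leaving out baseline butyrate replicate 3 kept the difference between the lesional groups at 2.79 and narrowed its SE to 0.13. These values describe the pattern for which Paqr7 was chosen.

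Baseline skin, with and without butyrate, was the comparison open to a test for Paqr7. The log2 fold-change was -0.23 ± 0.45 with a 95% interval of -1.33 to 0.86 (FDR = 0.84, edgeR). The groups overlapped, with one butyrate mouse above and one below both CTL mice. The value rested on which butyrate mouse was used, at 0.35 without replicate 3 and -1.22 without replicate 1. In the latter fit replicate 3 stood alone with its spread taken from the other groups, and 24.1% of all genes were called.

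**Figure D1:**
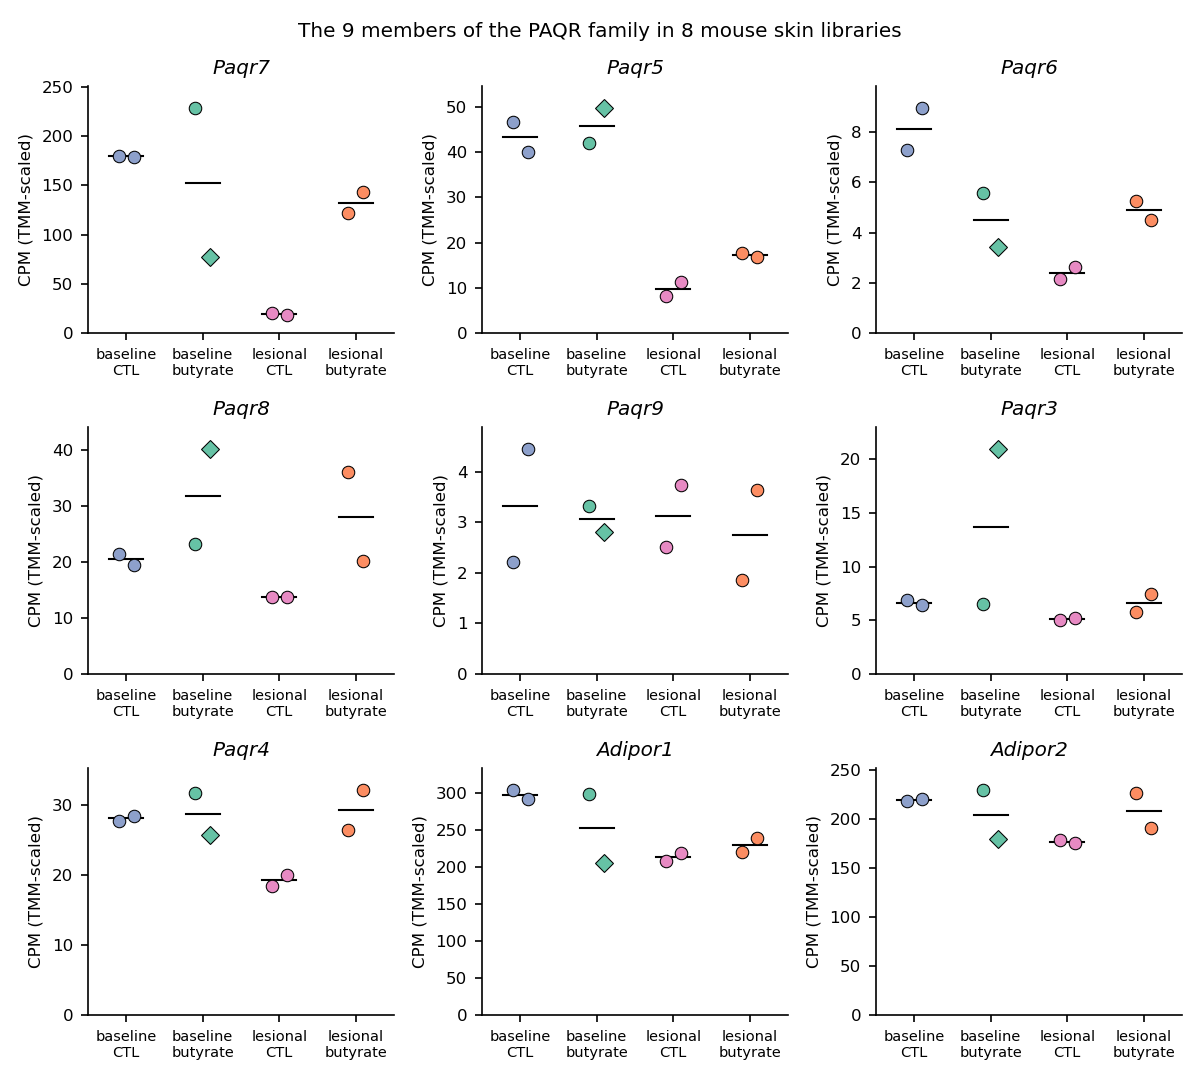
Level of each PAQR member in CPM (y axis, from 0) in each of the 8 mice, by group (x axis), where bars are group means and the diamond is baseline butyrate replicate 3. Paqr7 sits at 17.8 and 20.7 CPM in lesional CTL skin and at 77.4 CPM or more in every other mouse.

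Among the other membrane progestin receptors, Paqr5 and Paqr6 were lower in HDM-exposed CTL skin, while Paqr8 was not distinguishable and Paqr9 was low in all groups. Paqr5 measured 46.7 and 40.1 CPM in baseline CTL and 8.22 and 11.3 CPM in lesional CTL mice. The groups were far apart, and Paqr5 fell by 2.15 ± 0.21 on the log2 scale, or 4.44-fold (FDR = 0.0189, edgeR). Paqr6 measured 7.28 and 8.94 CPM in baseline CTL and 2.14 and 2.63 CPM in lesional CTL mice. It fell by 1.76 ± 0.33 on the log2 scale, or 3.39-fold (FDR = 0.0594, edgeR).

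A gene was called at an FDR below 0.1 and a fold-change above 2. In this comparison, 2 of the 8 members open to a test were called, both lower, where 3.58% of all tested genes were called and 1.21% were called lower. The levels of 7 of the 8 were lower with no overlap between the groups, as for 38.5% of all tested genes, and the median log2 fold-change of the 8 was -0.51 against -0.015 over all genes. Without baseline butyrate replicate 3, Paqr5 and Paqr6 were again the 2 called (FDR = 0.00193 and 0.00491), beside 12.5% of all genes, and 6.12% called lower. Without 1 CTL mouse of either skin, none of the 8 was called, beside 0% to 0.147% of all genes, and Paqr5 then ranged from -2.40 to -1.94 with FDRs of 0.101 to 0.258. Without either lesional butyrate mouse Paqr5 alone was called, beside 0.697% or 0.748% of all genes, and the FDR of Paqr6 was 0.142 or 0.143.

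Paqr8 measured 21.5 and 19.5 CPM in baseline CTL and 13.7 and 13.8 CPM in lesional CTL mice, a log2 fold-change of -0.57 ± 0.36 (FDR = 0.40). Paqr9, the lowest member, had 2.22 and 4.44 CPM in baseline CTL and 2.51 and 3.74 CPM in lesional CTL mice, resting on 40 to 81 counts a library. Its groups overlapped in each comparison. The fitted levels of the adiponectin receptors differed by less than 2-fold. Adipor1 measured 304 and 292 CPM in baseline CTL and 208 and 219 CPM in lesional CTL mice, a log2 fold-change of -0.48 with a 95% interval of -0.96 to -0.0051 (FDR = 0.25). Adipor2 measured 218 and 220 CPM in baseline CTL and 178 and 175 CPM in lesional CTL mice (log2 fold-change -0.31, FDR = 0.34). Both receptors had intervals that excluded a 2-fold difference.

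Neither of the internal membrane members was called between these groups. Paqr4 had 27.8 and 28.4 CPM in baseline CTL and 18.5 and 20.0 CPM in lesional CTL mice, a log2 fold-change of -0.54 ± 0.17 with a 95% interval of -0.96 to -0.12 (FDR = 0.17, edgeR). Without baseline butyrate replicate 3 the FDR of Paqr4 was 0.0282, at a fold-change under 2. Paqr3 had 6.89 and 6.38 CPM against 5.02 and 5.26 CPM, a log2 fold-change of -0.37 with a 95% interval of -1.62 to 0.88 (FDR = 0.71). An exon of Paqr4 overlaps Pkmyt1 and an exon of Paqr3 overlaps Bmp2k, each on the opposite strand. The counts are labelled as reverse-stranded but strand marking by the kit is not given in the sources used here, so reads in the shared bases may belong to either gene. In the same comparison the log2 fold-change was 0.18 for Pkmyt1 and 0.60 for Bmp2k, opposite in sign to that of the member. Between butyrate and CTL in baseline skin Bmp2k and Paqr3 had the same sign, at 0.71 and 1.05.

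Cell-type markers shifted in the same HDM comparison. Schwann cell markers, 6 genes that include Mbp, a protein of myelin, summed to 322.7 and 335.7 CPM in baseline CTL and 125.1 and 150.7 CPM in lesional CTL mice, with 6 of 6 lower. Skeletal muscle markers were lower in 10 of 10, and their sums ran from 45850 to 55290 CPM in baseline and 19360 to 27570 CPM in lesional CTL mice. Neutrophil markers summed to 89.25 and 90.53 CPM and then 2888 and 1842 CPM. Of their 10 tested genes 9 were called higher, beside 3.58% of all tested genes called in either direction. In whole skin, fewer cells of a type and less RNA per cell cannot be told apart, and the part of these shifts in the levels of Paqr5 and Paqr6 was not tested.

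HDM exposure was also compared within butyrate mice. Paqr5 was 42.0 and 49.7 CPM in baseline and 17.6 and 16.8 CPM in lesional butyrate mice, and it fell by 1.42 ± 0.20 on the log2 scale, or 2.67-fold (FDR = 0.0946, edgeR). It was the 1 of 8 members called, beside 0.35% of all genes and 0.0725% called lower. The call was lost in 9 of 19 alternatives, among them the fit of only those 4 mice (FDR = 0.64), where no gene of the table was called, although Paqr5 was lower without overlap, as were 16.9% of all genes. The other 7 members had FDRs of 0.439 or more, and their groups overlapped. Paqr6 was at 5.58 and 3.43 CPM in baseline and 5.25 and 4.51 CPM in lesional butyrate mice (log2 fold-change 0.12, 95% interval -0.64 to 0.88).

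**Figure D2:**
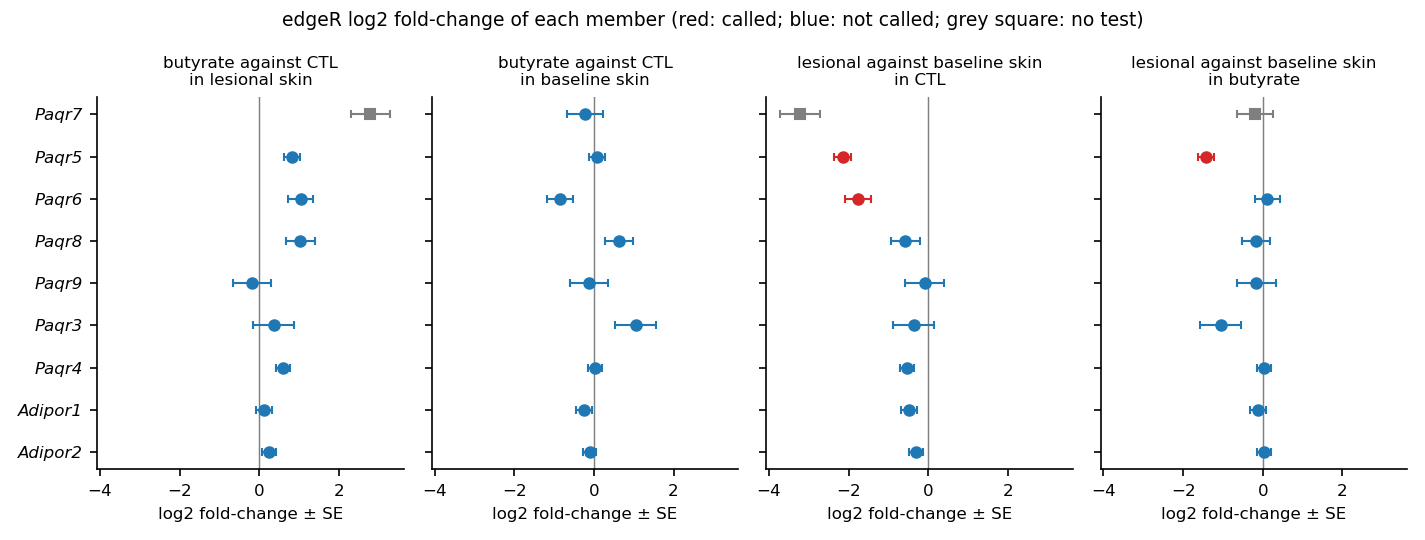
Fitted log2 fold-change ± SE (x axis) of each member (y axis) in 4 comparisons, with called members in red, members not called in blue, and Paqr7 as a grey square where no test is given. Paqr5 is called in both lesional against baseline comparisons (-2.15 and -1.42) and Paqr6 in that of CTL mice (-1.76).

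Butyrate was then compared with CTL in lesional skin, for the members other than Paqr7. None of these 8 was called by edgeR, limma-voom or DESeq2, with 0% of all tested genes called by edgeR. At an unadjusted p below 0.05, 4 of the 8 and 734 of all 15163 genes passed. All values but that of Paqr9 were higher with butyrate and did not overlap, 7 of 8 members where 22.4% of all genes were higher without overlap. The median log2 fold-change of the 8 was 0.48, against -0.0053 over all genes.

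Paqr5 reached 17.6 and 16.8 CPM in lesional butyrate mice, above the 8.22 and 11.3 CPM of lesional CTL, at a log2 fold-change of 0.81 ± 0.20 (FDR = 0.74, edgeR). Both groups remained under the baseline mice, and lesional butyrate skin held 39.6% of the baseline CTL mean. Paqr6 was at 5.25 and 4.51 CPM with butyrate and 2.14 and 2.63 CPM without (log2 fold-change 1.03 ± 0.32, FDR = 0.87). Paqr8 was at 36.1 and 20.1 CPM with butyrate and 13.7 and 13.8 CPM without (1.03 ± 0.36, FDR = 0.94), the butyrate mice being 1.8-fold apart. Paqr4 was at 26.4 and 32.1 CPM with butyrate, 104% of the baseline CTL mean, and 18.5 and 20.0 CPM without (0.60 ± 0.17, FDR = 0.84).

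Paqr3 was at 5.77 and 7.44 CPM with butyrate and 5.02 and 5.26 CPM without (log2 fold-change 0.36 ± 0.52). The adiponectin receptors differed least among members whose groups did not overlap. Adipor1 was at 221 and 240 CPM with butyrate and 208 and 219 CPM without (0.12, 95% interval -0.36 to 0.59), and Adipor2 at 226 and 191 CPM with and 178 and 175 CPM without (0.24, 95% interval -0.16 to 0.64). Paqr9 was at 1.86 and 3.63 CPM with and 2.51 and 3.74 CPM without. Without baseline butyrate replicate 3, 1.22% of all genes were called and 0.332% were called higher, and none of the 8 members was. The FDRs of Paqr4, Paqr5 and Paqr6 were then 0.112, 0.115 and 0.115.

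The summed level of suprabasal keratinocyte markers, like Paqr7, was lower in lesional CTL mice than in lesional butyrate and baseline CTL mice. Baseline butyrate replicate 3 departed from this. It had the lowest marker sum of the 8 mice, with Paqr7 at 77.4 CPM, above both lesional CTL mice. The 14 listed genes, among them Krt10, Krt1 and Lor of the cornifying layers, summed to 7160 and 8754 CPM in lesional CTL mice, 21730 and 16180 CPM in lesional butyrate mice, 22470 and 20730 CPM in baseline CTL mice, and 21000 and 5559 CPM in baseline butyrate replicates 1 and 3. The genes were not alike between lesional and baseline skin of CTL mice. There 9 of the 14 had lower fitted levels, Krt10, Krt1 and Lor among them, and 5 had higher ones. In lesional skin 13 of 14 had higher fitted levels with butyrate, 12 without overlap, beside 22.4% of all tested genes, and none was called. Per 1000 CPM of these markers, Paqr7 was at 2.89 and 2.03 CPM in lesional CTL, 5.61 and 8.86 in lesional butyrate, 8.01 and 8.65 in baseline CTL and 10.9 and 13.9 in baseline butyrate mice. On this ratio the log2 difference between the lesional groups was 1.54 in place of 2.78. Paqr7 was chosen for its difference between these mice, so the ratio too is a description.

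Neutrophil markers were lower with butyrate in lesional skin, at 841.6 and 405.9 CPM, and Schwann cell markers higher, at 196.8 and 315.2 CPM. Basal keratinocyte markers had a median log2 fold-change of -0.015 in this comparison, with sums of 11970 to 13650 CPM over the 4 lesional mice. They did not move together, as 4 of 8 had higher and 4 had lower fitted levels with butyrate. No listed suprabasal or Schwann marker was at 0 in any mouse. The part of these cell types in the levels of Paqr7 and Paqr6 was not tested.

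**Figure D3:**
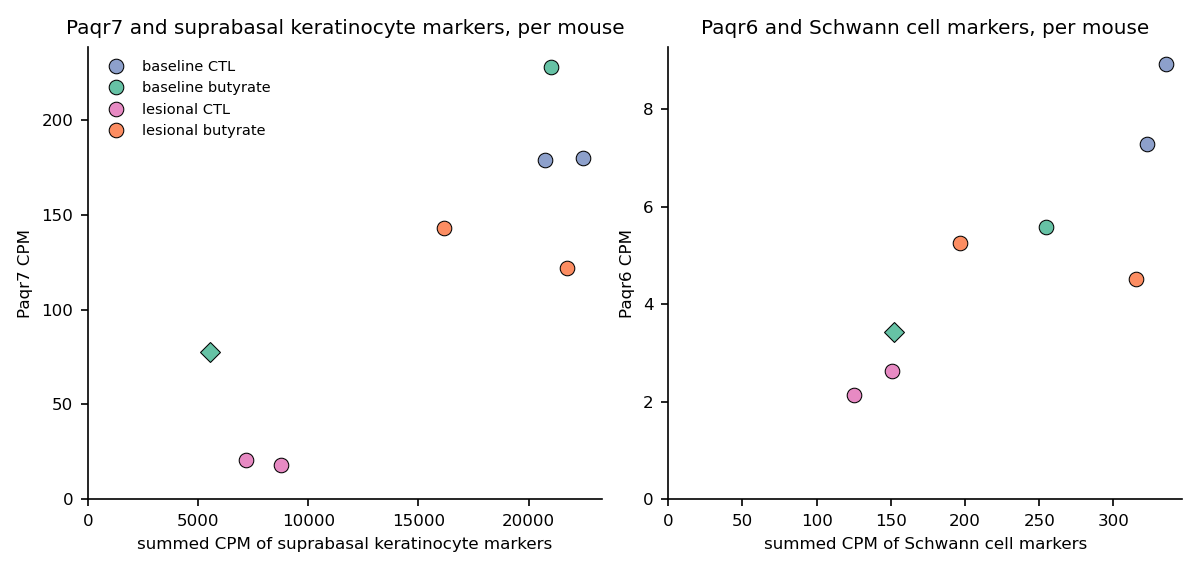
Left, Paqr7 CPM (y axis) against the summed CPM of 14 suprabasal keratinocyte markers (x axis), and right, Paqr6 CPM against 6 Schwann cell markers, with 1 point per mouse and baseline butyrate replicate 3 as a diamond. Both lesional CTL mice lie low on both axes, at 7160 and 8754 CPM of suprabasal markers and 17.8 to 20.7 CPM of Paqr7.

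In baseline skin, none of the 9 members was called between butyrate and CTL mice, beside 0% of all genes. At an unadjusted p below 0.05, 1 of the 9 and 529 of all genes passed, and limma-voom and DESeq2 called none of the 9. Paqr6 was at 5.58 and 3.43 CPM in butyrate and 7.28 and 8.94 CPM in CTL mice, lower without overlap (log2 fold-change -0.85 ± 0.32, FDR = 0.71). Paqr8 was at 23.3 and 40.1 CPM in butyrate and 21.5 and 19.5 CPM in CTL mice, higher without overlap (0.63 ± 0.35, FDR = 0.71). Without baseline butyrate replicate 3 the log2 fold-change was -0.53 for Paqr6 and 0.19 for Paqr8. The shares of genes without overlap were 15.9% lower and 13.8% higher over the whole table. Paqr3 was at 20.9 CPM in baseline butyrate replicate 3 and at 5.02 to 7.44 CPM in the other 7 mice. Its log2 fold-change of 1.05 thus became -0.021 without that mouse. Bmp2k, which overlaps an exon of Paqr3, was also highest in that mouse, at 97.7 CPM against 43.3 to 68.2 CPM elsewhere. The part of shared reads in this was not tested.

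The butyrate effect in lesional skin was set against that in baseline skin by an interaction term. None of 8 members was called, with 0% of all genes. For Paqr6 the effects differed by 1.88 ± 0.45 on the log2 scale, being above 0 in lesional and below 0 in baseline skin (FDR = 0.84), and for Paqr5 by 0.73 ± 0.28 (FDR = 0.84). The value for Paqr7 was 3.02 ± 0.66, as a description. The intervals of Adipor1 (-0.32 to 1.03) and Adipor2 (-0.23 to 0.91) both held 0.

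Levels were compared between members per kilobase of merged exons, as RPKM, the CPM divided by exon length in kilobases. In baseline CTL skin the order was Adipor1 at 59.3, Paqr7 at 42.1 and Adipor2 at 36.6 RPKM, with no overlap between these 3. Paqr5 at 11.0 and Paqr4 at 10.6 RPKM overlapped, as did Paqr8 at 3.74 and Paqr6 at 3.34 RPKM. Paqr3 at 0.877 and Paqr9 at 0.398 RPKM came last. Over the longest transcript of each gene in place of merged exons, Paqr7 came after Adipor2, at 50.6 against 52.3 RPKM.

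In lesional CTL skin Paqr7 ranked 4 with 4.52 RPKM, below Adipor1 at 42.5, Adipor2 at 29.5 and Paqr4 at 7.28 RPKM, and above Paqr8 at 2.51 and Paqr5 at 2.47 RPKM, which overlapped. It held 4.98% of the summed RPKM of the family there, against 25.1% in baseline CTL and 22.9% in lesional butyrate skin. In baseline butyrate skin it held 29.5% in replicate 1 and 14.7% in replicate 3. In lesional butyrate skin Paqr7 at 31.1 RPKM overlapped Adipor2 at 34.9 RPKM, and both lay below Adipor1 at 45.9 RPKM. Adipor1 headed the order in all 4 groups and Paqr9 ended it.

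**Figure D4:**
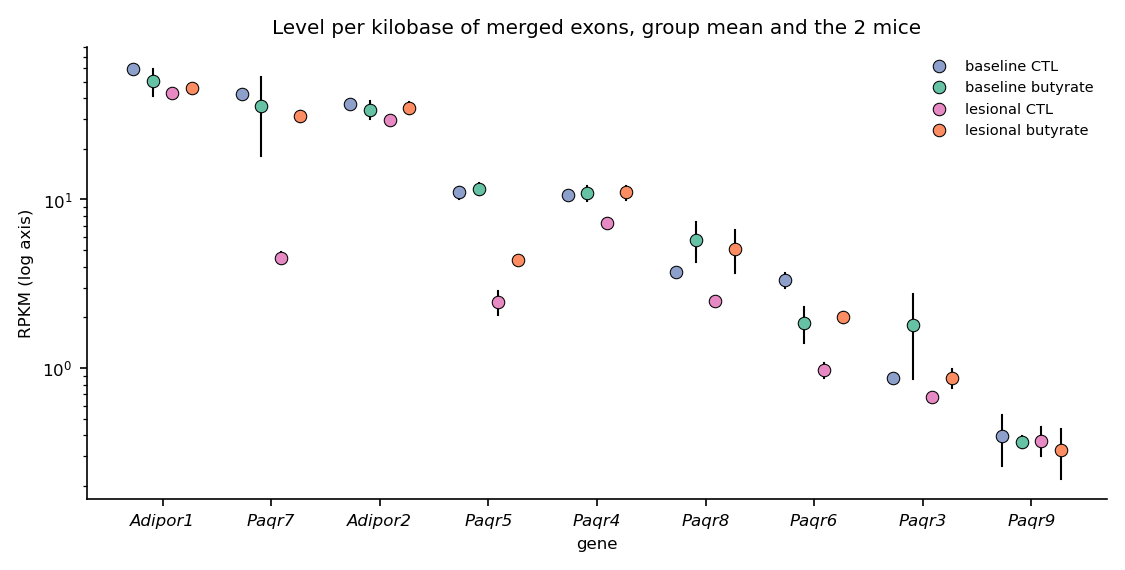
RPKM of each member (y axis, log scale) by gene (x axis) and group (colour), where points are group means and lines join the 2 mice. Paqr7 is the member that leaves the upper tier in lesional CTL skin, at 4.52 RPKM, and Paqr9 stays below 1 RPKM.

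The genes whose pattern was most like that of Paqr7 were sought among 14197 tested genes averaging at least 1 CPM, by Pearson's r of log2 CPM over the 8 mice. The r values describe libraries that share groups and composition, and carry no p. They were 0.983 for Itga8, an integrin subunit, 0.980 for Lman2l, a lectin of the secretory pathway, 0.970 for Dexi, 0.969 for Fam161b and 0.965 for Agpat9, an acyltransferase of glycerolipid synthesis. In size these genes differed less than Paqr7 did. Itga8 had the widest range, with 4.91 and 5.08 CPM in lesional CTL mice and 9.12 and 10.6 CPM in lesional butyrate mice. Lman2l had 25.8 and 26.8 CPM and then 36.6 and 36.1 CPM.

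By rank over the 8 mice, Spearman's rho was 0.929 for Itga8, 0.952 for Lman2l and Agpat9, 0.786 for Fam161b and 0.595 for Dexi. Without the baseline butyrate mice each of the 5 had r from 0.979 to 0.989. Their ranks were then from 8 (Dexi) to 23 (Fam161b), so which genes came first depended on those mice. Within the family, r with Paqr7 was 0.945 for Paqr4, which ranked 19 among all genes compared, 0.893 for Paqr6, 0.828 for Adipor2, 0.764 for Paqr5, 0.743 for Adipor1, 0.518 for Paqr8, 0.195 for Paqr3 and 0.0094 for Paqr9. Without the baseline butyrate mice r was 0.937 for Paqr4, 0.928 for Paqr6, 0.857 for Adipor2, 0.842 for Paqr5, 0.755 for Adipor1, 0.698 for Paqr8, 0.85 for Paqr3 and -0.058 for Paqr9, so the value of Paqr3 rested on those mice.

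**Figure D5:**
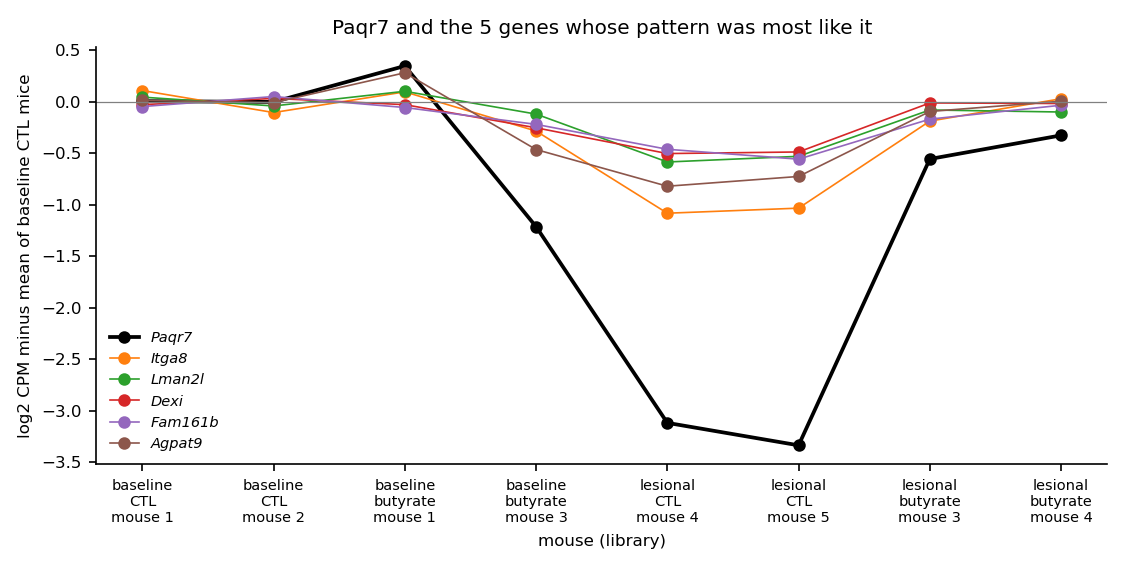
log2 CPM of Paqr7 and of the 5 genes most like it (y axis, relative to each gene's mean in baseline CTL) in each of the 8 mice (x axis, with group and replicate number). All 6 lines are lowest in the lesional CTL mice, with Itga8 at 4.91 and 5.08 CPM there and Paqr7 at 20.7 and 17.8 CPM.

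The 3 nearest listed genes on each side of Paqr7 were read beside it, and none was called in any comparison. Aunip, 764 bases away, was at 1.12 and 1.57 CPM in lesional CTL and 1.57 and 2.05 CPM in lesional butyrate mice. Stmn1 and Mtfr1l, the next nearest, had log2 fold-changes of 0.25 and -0.16 between these groups, Extl1, Pafah2 and Sepn1 had 0.22, 0.22 and -0.37, and all 6 had FDR = 1 (edgeR), in a comparison where no gene of the table was called. Extl1 was at 86.2 and 83.6 CPM in baseline CTL, 56.4 and 59.3 CPM in lesional CTL and 63.6 and 71.2 CPM in lesional butyrate mice. Among these groups Extl1 was thus lowest in lesional CTL mice, as was Paqr7, with smaller differences. In the baseline butyrate mice Extl1 was at 71.5 CPM in replicate 1 and 25.1 CPM in replicate 3. The latter lay below both lesional CTL mice, whereas Paqr7 in that mouse lay above them.

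Genes around the receptors were read from lists of ligands, effectors and relatives. Of the adiponectin list of 17 genes, 2 were called in the HDM comparison of CTL mice, both lower, beside 3.58% of all genes called and 1.21% called lower, and 14 of 17 had lower fitted levels, with a median of -0.35. Without either baseline CTL mouse no gene of the table was called. Appl2, an adaptor that binds adiponectin receptors, measured 138 and 122 CPM in baseline CTL and 61.6 and 65.3 CPM in lesional CTL mice (log2 fold-change -1.03, FDR = 0.0321). Ppargc1a, a coactivator of mitochondrial genes downstream of adiponectin, measured 27.2 and 20.1 CPM and then 7.69 and 7.34 CPM (-1.66, FDR = 0.0676). Adipocyte markers were lower in the same comparison, with 9 of 11 lower and a median of -0.43. Of these markers 7 were lower without overlap, beside 38.5% of all tested genes. The markers summed to 6442 and 6107 CPM in baseline CTL against 3619 and 4282 CPM in lesional CTL mice. Their part in the list's values was not tested. Neither Appl2 nor Ppargc1a was called in another comparison, and in lesional skin the median of the list between butyrate and CTL was 0.067, with 11 of 17 higher.

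Of 16 tested genes of progesterone and related steroids, none was called in any comparison. In the HDM comparison of CTL mice 12 of the 16 were lower without overlap, beside 38.5% of all tested genes, and those with the lowest FDR were Srd5a1, which reduces progesterone and testosterone, at -0.46 (FDR = 0.17), and Akr1c14, which acts on its products, at -1.44 (FDR = 0.19). Between butyrate and CTL in lesional skin Srd5a1 had a log2 fold-change of 0.53 (FDR = 0.82). Pgr and the membrane-associated progesterone receptor components were looked up after their values were seen. Pgr was at 0.5 CPM or below in every mouse and at 0 in 3 of the lesional mice, whereas Pgrmc1 and Pgrmc2 were at 99.1 to 152 CPM in all 8 mice.

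Of the 15 genes of ceramidases and sphingosine 1-phosphate none was called. The lowest FDR in the HDM comparison of CTL mice belonged to Sgpp2, a phosphatase of sphingosine 1-phosphate, at 2.52 (FDR = 0.14). S1pr3, a receptor for this lipid, came next at 1.78 (FDR = 0.16). The 12 tested G proteins and adenylyl cyclases, which progestin receptors are reported to use, and the 16 genes from Raf to ERK, the pathway that Paqr3 holds back, had no call either. The lowest FDRs were those of Adcy6 at -0.86 (FDR = 0.15) and Adcy3 at 0.44 (FDR = 0.18), and of Araf at -0.48 (FDR = 0.18). In that comparison the median log2 fold-change was -0.49 for the steroid list, -0.27 for the sphingosine list, -0.26 for the G protein list and -0.015 for the Raf list, beside -0.015 over all tested genes. Mmd, a PAQR relative outside the 9 that is known from macrophages, measured 108 and 122 CPM in baseline CTL and 74.9 and 79.8 CPM in lesional CTL mice (-0.58, FDR = 0.19), and Mmd2 was too low to be tested.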

How the data were processed

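Total RNA of whole dorsal skin was made into libraries with a TruSeq RNA kit. The authors aligned the reads with STAR (2.5.2 in the submitters' processing notes) to GRCm38, used featureCounts to count them, and deposited the raw counts of the protein-coding genes. From these counts, edgeR 4.0.16 (R 4.3.3) was run on all 8 mice with TMM factors, a minimum count of 10 in filterByExpr and the robust quasi-likelihood test (4 residual degrees of freedom, prior count 0.125). FDRs were adjusted over all 15163 genes, and calls needed an FDR below 0.1 and a fold-change above 2. The test was checked on simulated data. Alternatives were limma-voom 3.58.1, DESeq2 1.42.0, other scalings, filters and thresholds, and fits leaving out mice. GENCODE vM21 gave positions and exon lengths. No confidence intervals beyond the fitted ones were computed. Counting error was not separated from the spread between mice, and Paqr9 and Paqr6 had as few as 39 and 40 counts in a library. Members and lists were chosen with earlier results of these data known. Named were all members, the 5 genes most like Paqr7, 3 neighbours on each side, called list genes or otherwise the 2 with the lowest FDR (1 where others tied at 1), and up to 3 markers a list. Some list genes are not reported here.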

Additional observations from a re-analysis of the deposited data

Results flagged for a closer look

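Paqr6 was the member whose butyrate and CTL mice did not overlap in either skin state while the differences had opposite signs, and neither difference passed the test (FDR = 0.87 in lesional and 0.71 in baseline skin, edgeR). In lesional skin both butyrate mice (5.25 and 4.51 CPM) lay above both CTL mice (2.14 and 2.63 CPM), and in baseline skin both butyrate mice (5.58 and 3.43 CPM) lay below both CTL mice (7.28 and 8.94 CPM). The effects differed by 1.88 on the log2 scale, and the interaction term of edgeR gave FDR = 0.84 for Paqr6. Without baseline butyrate replicate 3 the effects differed by 1.55. Without baseline butyrate replicate 1, which left replicate 3 alone in its group with its spread taken from the other groups, they differed by 2.27, in a fit that called 20.9% of all genes. The group means of the summed Schwann cell markers were in the same order as those of Paqr6, with the mice at 322.7 and 335.7 CPM in baseline CTL, 254.3 and 151.9 CPM in baseline butyrate, 125.1 and 150.7 CPM in lesional CTL and 196.8 and 315.2 CPM in lesional butyrate mice. The group means of the summed suprabasal keratinocyte markers were in this order too. The part of these markers in the Paqr6 values was not tested.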

How the results depend on the processing

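Of the log2 fold-changes of the 9 members recomputed under the alternatives, 788 of 856 kept their direction and their side of the threshold (for Paqr7 where untested, moved by no more than the spread between mice) and 42 changed sign. The Paqr7 difference between lesional butyrate and lesional CTL skin ranged from 2.66 to 2.90 without each mouse in turn, and was 1.54 relative to the summed suprabasal markers, an alternative added after seeing the data, as were limma-voom without baseline butyrate replicate 3 and edgeR without both baseline butyrate mice. None of the 8 members tested was called between butyrate and CTL in lesional skin under the alternatives run. The number of members called between lesional and baseline skin of CTL mice was 2, and ranged from 0 to 2 without each mouse in turn. It was 1 at FDR below 0.05. In butyrate mice it was 1, and 0 to 2 without each mouse in turn. There it was 0 with library totals alone, with only the groups compared by edgeR or limma-voom, and at FDR below 0.05. Without baseline butyrate replicate 1, which leaves replicate 3 alone in its group and assumed to vary like the others, 3 of 9 members were called between butyrate and CTL in baseline skin (Paqr3, Paqr6 and Paqr7) and 2 of 8 in the difference between butyrate effects, beside 24.1% and 20.9% of all genes (3777 and 3275). Both counts were 0 without each other mouse. The cause of these shifts was not tested.

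Members whose log2 fold-change crossed 0 when a mouse was left out are given by their lowest and highest values. In baseline skin, between butyrate and CTL, these were Paqr3 with -0.021 to 1.65, Paqr4 with -0.13 to 0.18, Paqr5 with -0.048 to 0.19, Paqr7 with -1.22 to 0.35, Paqr9 with -0.54 to 0.46, Adipor1 with -0.54 to 0.0035 and Adipor2 with -0.29 to 0.062. Between lesional and baseline skin of butyrate mice, Paqr3 had -1.66 to 0.017, Paqr4 -0.12 to 0.19, Paqr6 -0.20 to 0.51, Paqr7 -0.79 to 0.78, Paqr8 -0.66 to 0.27, Paqr9 -0.70 to 0.25, Adipor1 -0.37 to 0.17 and Adipor2 -0.14 to 0.22. For the difference between butyrate effects Paqr3 had -1.29 to 0.38, Paqr8 -0.085 to 0.84 and Paqr9 -0.65 to 0.35. Paqr9 also had -0.75 to 0.21 between butyrate and CTL in lesional skin and -0.51 to 0.49 between lesional and baseline skin of CTL mice, where library totals alone gave 0.036.

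Over all genes, edgeR on 8 mice called 0 between butyrate and CTL in lesional skin, DESeq2 124, and edgeR without baseline butyrate replicate 3 called 187. Between lesional and baseline skin of CTL mice the counts were 543, 1093 and 1911, and in butyrate mice 53, 698 and 912. Without each CTL or lesional butyrate mouse they were 0 to 117 in CTL mice and 0 to 6 in butyrate mice, and without baseline butyrate replicate 1 they were 1936 and 2990. With only the groups compared, edgeR called 1918 and 0. In baseline skin DESeq2 called 58 genes and edgeR 0, or 3777 without baseline butyrate replicate 1. List medians moved by less than the spread between mice in 1421 of 1482 recomputations. No paired analysis was possible because no 2 groups that were compared have more than 1 replicate number in common. With 2 mice a group, a member's difference has to be large against the pooled spread to be called.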
